A study of Mus musculus with 6 samples.

Results

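The 34 genes described here encode the enzymes, transporters and regulators of glycolysis (27 genes) and of the pentose phosphate pathway (7 genes). They were chosen by name, with no measured value in the rule, as the rows of the count tables that carry these symbols, and all 34 were found among the 38293 gene IDs. Glycolysis splits glucose into pyruvate and yields ATP, and lactate dehydrogenase can turn the pyruvate into lactate, which leaves the cell through monocarboxylate transporters. The pentose phosphate pathway branches off at glucose 6-phosphate: its oxidative arm makes NADPH, which feeds the phagocyte NADPH oxidase, a source of reactive oxygen species (ROS), and also the glutathione and thioredoxin systems that remove them, and its non-oxidative arm returns sugars to glycolysis. Activated macrophages are known for high glycolysis, partly under the transcription factor HIF-1.

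The cells came from the spinal cord of C57BL/6 mice, 10 weeks old, that were healthy or at the onset (score 1) of experimental autoimmune encephalomyelitis (EAE), a paralytic demyelinating disease raised with the myelin peptide MOG35-55. All samples were dissociated with collagenase, stained with 10 uM DCFDA, a dye that fluoresces once oxidised, and sorted for CD11b, a surface protein of microglia, monocytes, macrophages and other innate immune cells. The 3 groups were EAE cells of the dye-positive gate (ROS+), EAE cells of the dye-negative gate (ROS-) and healthy cells of the dye-negative gate, with 2 droplet single-cell RNA-seq libraries each, and no allele or drug differed between them. Whether the libraries of a group stem from different mice is not in the labels, so p-values measure only the spread between these samples, which may be technical.

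A level here is the count of UMIs (tags that mark single transcripts) of a gene relative to all UMIs of the same cells, summed over a cell class in a library and given in CPM, where 10000 CPM is 1% of the UMIs. A tag marks a 3′ end and is not divided by gene length, so levels are compared between cells and not between genes. Cells were clustered with the pathway genes left out and clusters were named from marker genes. Microglia-like cells numbered 1753 and 196 in the healthy libraries, 482 and 242 in EAE ROS- and 30 and 22 in EAE ROS+, each time in the order of replicates 1 and 2, which is kept throughout. Monocyte/macrophage-like cells numbered 657 and 989 in EAE ROS- and 1631 and 2155 in EAE ROS+, with 0 in either healthy library. Dendritic cell-like cells numbered 173 and 119 in EAE ROS- and 3 and 2 in EAE ROS+, too few in the latter to sum. Libraries held 915197 to 23407825 UMIs, with a median of 2178 and 3617.5 UMIs per cell in the healthy libraries and 5467 to 9543 in the EAE libraries, and 1 to 24 barcodes per library also occurred in another library. Healthy replicate 2 stood apart: the 7 endothelial markers summed to 331 CPM in its microglia-like cells, against 9.41 to 14.3 in the other 5 libraries. The 4 astrocyte markers summed to 74.8 there, against 5.08 to 28.5 in the others.

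Promoter sequences show a regulatory feature in which the members differ. HIF-1 binds elements whose core is commonly ACGTG, which reads as CACGT when it lies on the opposite strand, and the 250 bases before and 50 bases after each start were searched for it on both strands. The palindromic E-box CACGTG holds a match on each strand and so counts once on each. Of the 34 members 33 had a promoter in the RefSeq table (build GRCm38.p6). The motif stood in at least 1 promoter of 17 of 26 glycolysis genes (65.4%) and of 1 of 7 pentose phosphate genes (14.3%, G6pdx), against 21.8% of all 27025 genes of the table. Genes with several promoters have more chances to hold it. Shown here are the 250 bases before the start of 4 genes on which the results below turn, with the motif in capitals: Ldha (chr7:46845554-46845803, plus strand, inside the annotated span of the gene but in no annotated exon), Pgk1 (chrX:106186850-106187099, plus strand), Ldhb (chr6:142507958-142508207, minus strand) and Taldo1 (chr7:141391910-141392159, plus strand).
Ldha: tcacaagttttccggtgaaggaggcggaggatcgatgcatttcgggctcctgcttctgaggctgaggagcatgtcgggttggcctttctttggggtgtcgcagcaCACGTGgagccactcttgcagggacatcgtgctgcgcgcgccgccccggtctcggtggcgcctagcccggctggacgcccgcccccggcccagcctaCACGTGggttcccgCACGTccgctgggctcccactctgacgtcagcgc
Pgk1: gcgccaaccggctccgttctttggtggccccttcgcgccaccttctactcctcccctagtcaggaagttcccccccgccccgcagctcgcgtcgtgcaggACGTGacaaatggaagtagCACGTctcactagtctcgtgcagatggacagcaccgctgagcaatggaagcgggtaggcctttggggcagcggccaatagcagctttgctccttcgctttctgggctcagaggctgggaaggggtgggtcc
Ldhb: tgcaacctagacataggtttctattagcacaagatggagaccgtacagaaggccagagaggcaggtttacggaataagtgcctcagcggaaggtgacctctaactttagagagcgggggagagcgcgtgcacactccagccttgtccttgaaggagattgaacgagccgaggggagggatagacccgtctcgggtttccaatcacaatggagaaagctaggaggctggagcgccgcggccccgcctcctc
Taldo1: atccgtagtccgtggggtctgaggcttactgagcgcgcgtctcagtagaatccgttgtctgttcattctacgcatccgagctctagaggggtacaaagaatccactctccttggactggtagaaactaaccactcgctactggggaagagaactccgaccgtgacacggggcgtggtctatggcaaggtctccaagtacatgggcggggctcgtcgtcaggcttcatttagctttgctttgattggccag
The Ldha window held 5 matches, of which 2 E-boxes gave all but 1, and the Pgk1 window held 2. The table lists a second Ldha promoter (chr7:46846832-46847081), which held none. The Ldhb and Taldo1 windows held no ACGTG or CACGT. Other forms of the core were not searched, among them GCGTG, which the printed Ldhb and Taldo1 sequences both contain. A match is a string of letters and says nothing about binding in these cells.

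In microglia-like cells, RNA of both branches was higher at EAE onset than in health. The glycolysis genes together made up 0.291% ± 0.0175 (SD, n = 2) of UMIs in the healthy libraries and 0.559% ± 0.00215 (SD, n = 2) in EAE ROS-, a ratio of 1.92. The pentose phosphate genes made up 0.0511% ± 0.00358 and 0.0864% ± 0.0110, a ratio of 1.69. In both sums the EAE libraries lay above the healthy ones without overlap, while the pentose phosphate genes held 14.8% and 15.03% of the members' UMIs in health and 12.3% and 14.5% in EAE ROS-. These sums carry no test.

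The microglia-like class was made of different clusters in the groups. Of the healthy cells, 1271 and 161 were in the cluster led by Gpr34 and P2ry12 and 473 and 27 in one led by Klf2, Rhob and Egr1, and neither cluster held an EAE cell. Of the EAE ROS- cells, 377 and 188 were in a cluster led by Cst7 and Ly86, 67 and 19 in one led by Ccl4 and Ccl3 and 38 and 35 in a dividing cluster. The 11 microglial markers summed to 23467 and 27012 CPM in health and 13752 and 13162 in EAE ROS-, and the part of this make-up in the values below was not tested.

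**Figure D1:**
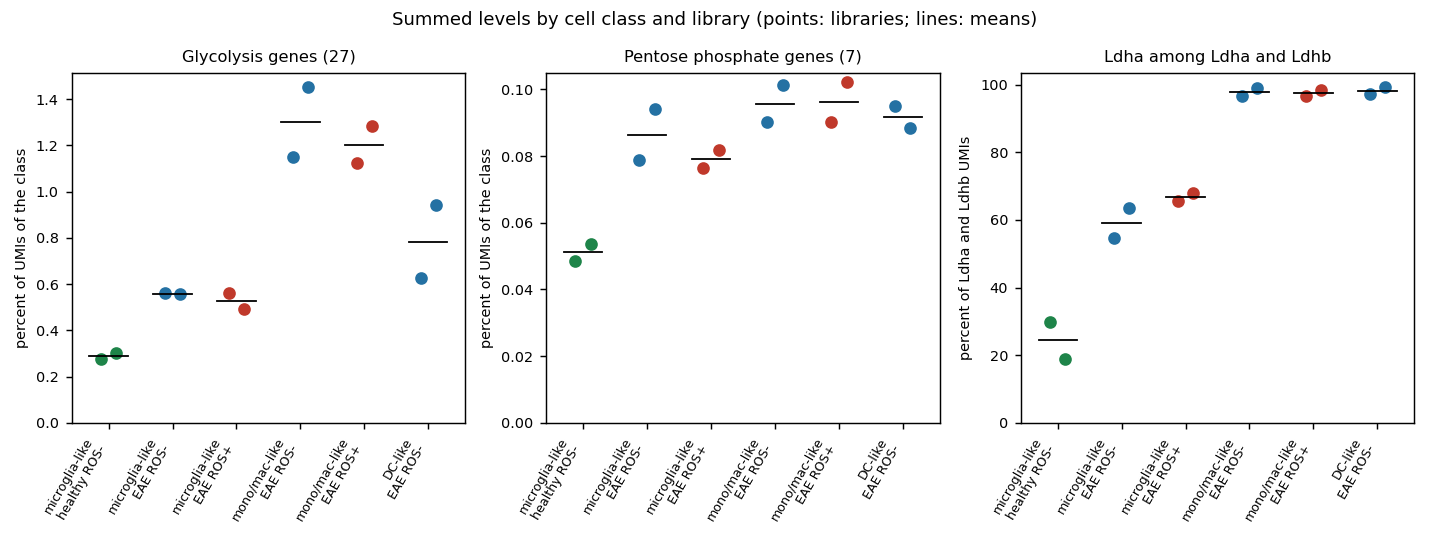
Summed level of the 27 glycolysis genes (left) and the 7 pentose phosphate genes (middle), each as a percent of all UMIs of the class in a library, and Ldha as a percent of Ldha and Ldhb UMIs (right). Points are libraries (green healthy ROS-, blue EAE ROS-, red EAE ROS+), lines are means of 2 libraries, and mono/mac and DC stand for monocyte/macrophage-like and dendritic cell-like cells. The mean glycolysis sum is 0.291% in healthy microglia-like, 0.559% in EAE ROS- microglia-like and 1.30% in EAE ROS- monocyte/macrophage-like cells, and the mean pentose phosphate sum is 0.0511%, 0.0864% and 0.0957%.

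By edgeR's quasi-likelihood test of EAE ROS- against healthy microglia-like cells, 17 of 31 members tested were called at an adjusted p under 0.05, all of them higher in EAE, where 28% of 8867 genes were called and 16% were called as higher. They were 12 of 24 glycolysis genes and 5 of 7 pentose phosphate genes. The median log2 fold change was 0.91 over the glycolysis genes and 0.99 over the pentose phosphate genes, beside -0.03 over all genes. Fold changes use TMM scaling. Scaling by plain library totals lowered the median of all genes by 0.22 and left 14 calls, without Pfkl, Pgls and Rpe.

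Glucose uptake did not pass the test. Slc2a1, the glucose transporter GLUT1, stood at 22.1 and 43.9 CPM in health and 35.0 and 47.3 in EAE ROS- (log2 fold change 0.65 ± 0.33, adjusted p = 0.158 by edgeR). The groups overlapped, the high healthy value being that of replicate 2, and endothelial cells are known for Slc2a1. Without that library the log2 fold change was 1.12. Without cells that held an endothelial marker UMI, a setting chosen after seeing the data, it was 0.93 (adjusted p = 0.0375 by edgeR). The part of endothelial RNA in these values was not tested.

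Hexokinases trap glucose in the cell. Hk2, the inducible form, was at 517 and 486 in health and 281 and 385 in EAE ROS-. Both healthy libraries were the higher ones, but the change missed the threshold (log2 fold change -0.40 ± 0.22, adjusted p = 0.193). Hk3, the hexokinase of myeloid cells, was at 27.6 and 28.5 against 64.3 and 107, without overlap, and rose (log2 fold change 1.79 ± 0.27, adjusted p = 8.63e-05). Gpi1, which isomerises glucose 6-phosphate where the branches part, rose from 95.5 and 79.5 to 217 and 186 (log2 fold change 1.41 ± 0.24, adjusted p = 0.000219). Hk1 was not called (log2 fold change -0.56).

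At the phosphofructokinase step, which commits sugar to glycolysis, Pfkp had 4 and 2 UMIs in the healthy libraries, a level of 0.904 and 2.37, and 52 and 27 UMIs in EAE ROS-, a level of 14.7 and 20.9. The groups did not overlap (log2 fold change 4.02 ± 0.59, adjusted p = 5.95e-05), and the log2 fold change without healthy replicate 1 was 2.95. Pfkl, the liver-type isoform, rose by 0.82 (adjusted p = 0.0192), a call that ended without any 1 of the 4 libraries compared (adjusted p = 0.0587 to 0.102). Pfkfb3, which makes the activator fructose 2,6-bisphosphate, stood at 75.0 and 55.8 against 63.5 and 79.9, overlapping, and like Pfkfb4 was not called (log2 fold changes 0.29 and -0.38).

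Most of the steps from aldolase to pyruvate kinase rose. Aldoa, the main aldolase, was at 295 and 278 against 779 and 632 (log2 fold change 1.51 ± 0.28, adjusted p = 0.000568). Tpi1, the triose isomerase, was at 94.4 and 94.9 against 279 and 225 (log2 fold change 1.63 ± 0.26, adjusted p = 0.000128). Neither overlapped between the groups. Gapdh, the NADH-making dehydrogenase, was at 372 and 489 against 1474 and 1527 (log2 fold change 2.00 ± 0.25, adjusted p = 1.06e-05). Pkm, the pyruvate kinase, was at 191 and 242 against 688 and 732 (log2 fold change 1.92 ± 0.24, adjusted p = 1.04e-05). All 4 EAE values of these genes lay above all healthy ones. Pgk1, which makes the first ATP of the pathway, was at 25.3 and 14.2 against 78.2 and 43.4 (log2 fold change 1.76 ± 0.32, adjusted p = 0.000492), and without EAE ROS- replicate 1 its log2 fold change was 1.17. Eno1, the enolase, rose by 1.07. Pgam1 was not called (log2 fold change 0.62), nor was Aldoc (-1.99), whose healthy value was 2.03 and 43.9 in the 2 libraries and which was called without healthy replicate 1 (-3.36, adjusted p = 0.000541). Gapdh, Aldoa, Ldha, Pgk1, Eno1, Tpi1 and Pgam1 have processed pseudogene copies, and the counting of reads shared with them was not analysed here.

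The make-up of lactate dehydrogenase differed. The Ldha subunit favours making lactate from pyruvate and the Ldhb subunit the reverse. Ldha was at 169 and 140.0 in health and 513 and 583 in EAE ROS- (log2 fold change 2.02 ± 0.23, adjusted p = 3.04e-06), without overlap and with the lowest p of the members. Ldhb was at 397 and 596 against 428 and 335, overlapping, and was not called (log2 fold change -0.17 ± 0.26, adjusted p = 0.672). Ldha thus gave 29.9% and 19.0% of the UMIs of both genes in health, 54.6% and 63.5% in EAE ROS- and 65.7% and 68.0% in the few microglia-like cells of EAE ROS+. Slc16a3, the lactate exporter MCT4, was at 40.0 and 45.1 against 73.4 and 71.4 and rose by 1.01 (adjusted p = 0.00542), a call that ended without healthy replicate 1 or EAE ROS- replicate 1 (adjusted p = 0.0904 and 0.0661). The lactate transporter Slc16a1 and the kinase Pdk1, which holds pyruvate back from mitochondria, were not called (log2 fold changes 0.61 and -0.45). Of the phosphoglucomutases, which link glycogen to the pathway, Pgm2 was at 9.49 and 8.31 against 17.5 and 14.0 (adjusted p = 0.0624) and Pgm1 had a log2 fold change of -0.19. The tables' Pgm1 and Pgm2 are the genes that GENCODE M21 names Pgm2 and Pgm1.

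Healthy microglia-like cells were not uniform in this. In the 500 cells of a cluster led by Klf2, Rhob and Egr1, immediate-early genes among them, the Ldha share was 36.8 and 28.6 percent, and in the 1432 cells of the cluster led by Gpr34 and P2ry12 it was 23.4 and 16.6 percent. The largest EAE microglia-like cluster had 53.1 and 63.4 percent in the ROS- libraries, above both. Immediate-early genes are known to come on during tissue dissociation, whose part in these levels was not tested.

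Of the pentose phosphate genes, the first enzyme did not pass the test and most later ones did. G6pdx, the rate-limiting dehydrogenase that makes the first NADPH, was at 22.1 and 22.5 in health and 24.3 and 21.7 in EAE ROS-, overlapping (log2 fold change 0.29 ± 0.31, adjusted p = 0.521). Pgls, the lactonase of the next step, was at 112 and 123 against 171 and 154 and rose (log2 fold change 0.68 ± 0.23, adjusted p = 0.0339). Pgd, which makes the second NADPH, was at 67.1 and 55.8 against 105 and 140.4 and rose (log2 fold change 1.16 ± 0.23, adjusted p = 0.00100). Neither Pgls nor Pgd overlapped between the groups. In the non-oxidative arm the transketolase Tkt was at 97.4 and 101 against 177 and 229.7 and rose (log2 fold change 1.23 ± 0.24, adjusted p = 0.000875). The transaldolase Taldo1 was at 143 and 199 against 258 and 334 and rose (log2 fold change 0.99 ± 0.25, adjusted p = 0.00578), a call that ended without healthy replicate 1 (adjusted p = 0.105). The epimerase Rpe rose by 1.03 (adjusted p = 0.0458) and lost its call without any 1 of the 4 libraries, as Pgls did without healthy replicate 1 or either EAE ROS- library. The isomerase Rpia was not called (log2 fold change 0.42).

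Markers of other cells moved with this comparison. The 10 monocyte/macrophage markers summed to 42.2 and 17.8 CPM in healthy and 447 and 706 in EAE ROS- microglia-like cells, where they stood at 7.59% and 6.90% of their level in the monocyte/macrophage-like cells of the same library. The same percent of each member's monocyte/macrophage level was set beside the rise of the 17 called members over the healthy mean, and came to 19.1% to 58.8% of the rise in replicate 1 and 9.72% to 83.3% in replicate 2. It was high for Slc16a3 (54.6% and 83.3%), Pgk1 (40.5% and 71.9%), Eno1 (41.8% and 66.3%), Tpi1 (35.3% and 58.6%), Pfkl (58.8% and 49.5%) and Pfkp (46.7% and 57.5%). It was lower for Ldha (24.2% and 28.3%), Gapdh (19.7% and 19.9%), Hk3 (19.1% and 10.6%) and Tkt (19.5% and 11.5%). These shares depend on the markers taken. Single markers stood at 3.96% (Ccr2) to 24.8% (Ms4a4c) of their monocyte/macrophage level in replicate 1. In replicate 2 they stood at 4.35% (Ccr2) to 33.65% (Vcan, of low level). The 4 markers of dividing cells summed to 19.0 and 26.1 in health and 249 and 466 in EAE ROS-, and without the dividing cluster all 17 calls stood. The part of the monocyte/macrophage RNA in each change was not tested.

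Genes around the pathway were taken from 3 lists, beside 16% of all genes called as higher and 11.9% as lower. Of 26 other sugar, lactate and pyruvate genes 4 rose and 3 fell (median 0.16), shares near those of all genes; those of lowest p were the transporter Slc2a6 (4.94), the microglial fructose transporter Slc2a5 (-2.17) and the kinase Pdk3 (1.51). Of 12 other pentose phosphate and NADPH genes 4 rose and 1 fell (median 0.35), led by the malic enzyme Me2 (1.71), Mthfd2 of mitochondrial folate metabolism (1.47) and the mitochondrial NADPH-making Idh2 (-0.996). Of 15 genes of hypoxia-inducible factor and its targets outside glycolysis 5 rose and 2 fell (median 0.16), led by the oxidase Ero1l (2.05), the growth factor Vegfa (4.48) and the lipid droplet protein Plin2 (1.37).

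**Figure D2:**
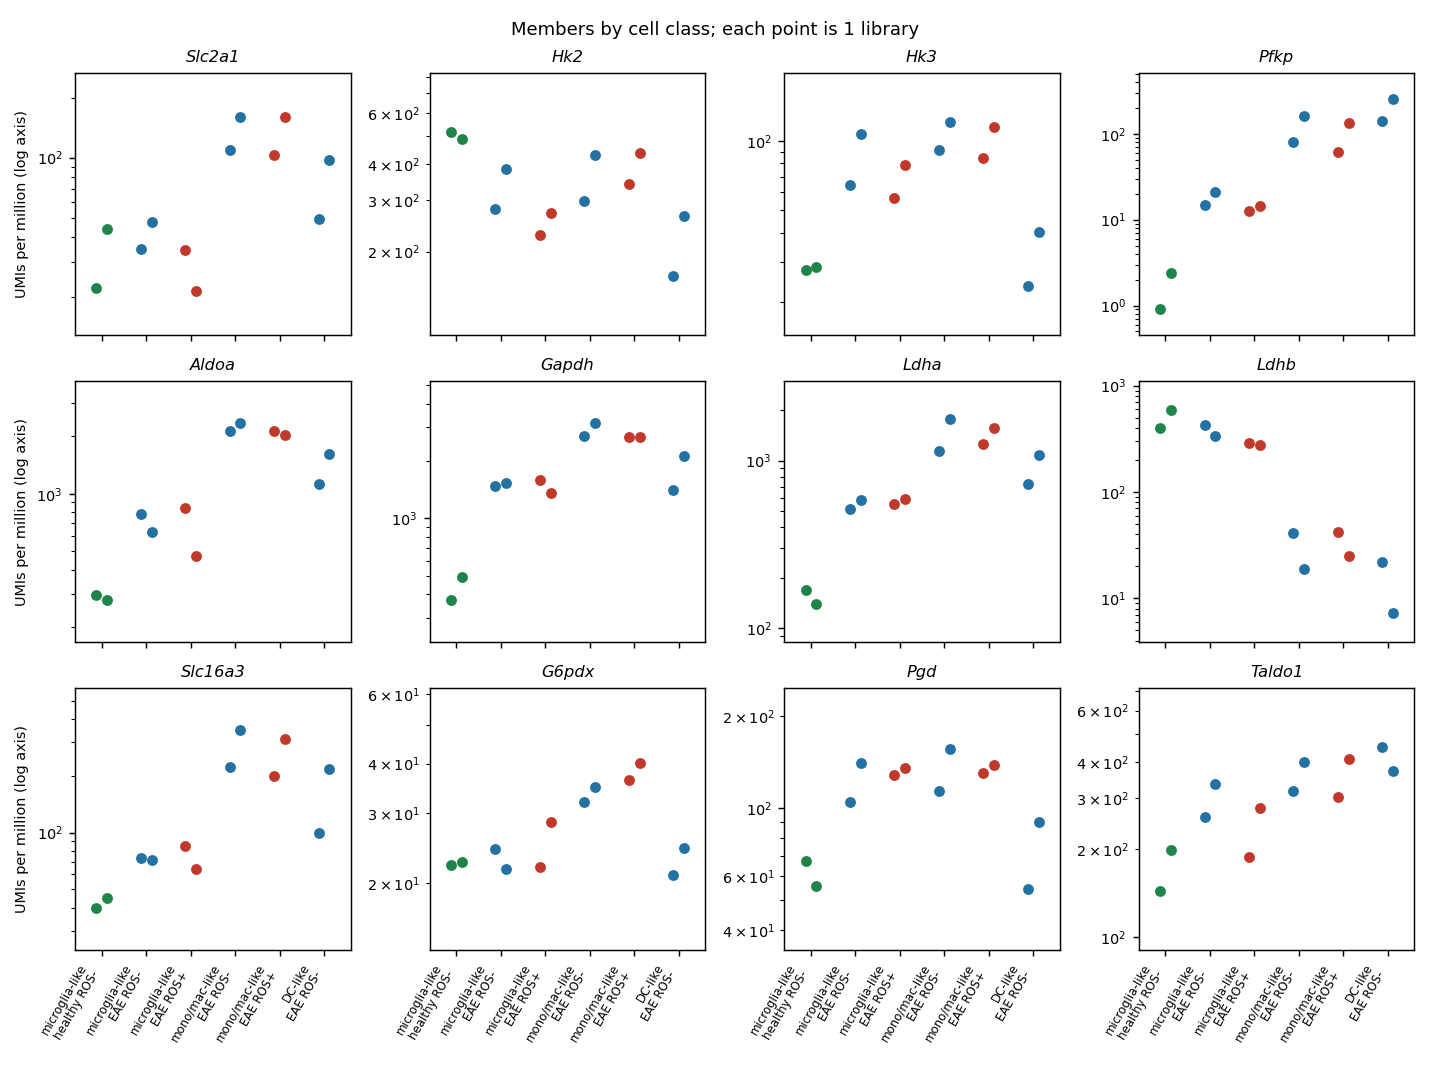
Levels of 12 members in CPM (UMIs) on a log axis, by class and group. Each point is 1 library (green healthy ROS-, blue EAE ROS-, red EAE ROS+). Ldha and Pfkp step up from healthy microglia-like to EAE microglia-like to monocyte/macrophage-like cells, while Ldhb is lowest in monocyte/macrophage-like and dendritic cell-like cells.

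Monocyte/macrophage-like cells carried more glycolysis RNA than the microglia-like cells of the same EAE libraries, with a smaller difference in pentose phosphate RNA. In ROS- the glycolysis sum was 1.30% ± 0.213 (SD, n = 2) against 0.559% ± 0.00215, a ratio of 2.33, and the pentose phosphate sum was 0.0957% ± 0.00791 against 0.0864% ± 0.0110, a ratio of 1.11. In ROS+ they were 1.20% ± 0.112 against 0.528% ± 0.0505 and 0.0962% ± 0.00846 against 0.0792% ± 0.00384. The microglia-like sums of ROS+ held only 318883 and 140340 UMIs over 30 and 22 cells. Low levels in them rest on few UMIs, among them those of G6pdx, Pfkp and Aldoc below. The pentose phosphate share of the members' UMIs was 7.25%, 6.51%, 7.42% and 7.38% in monocyte/macrophage-like cells and 12.3%, 14.5%, 11.9% and 14.3% in microglia-like cells (ROS- replicates 1 and 2, then ROS+ replicates 1 and 2, the order used below), without overlap.

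With the library as a block, edgeR called 23 of 31 members as higher in monocyte/macrophage-like cells and 2 as lower, where 43.3% of 10846 genes were called, 22.3% as higher and 21% as lower. They were 19 higher and 2 lower of 24 glycolysis genes and 4 higher of 7 pentose phosphate genes. The median log2 fold changes were 1.64 and 0.39, beside 0.00 over all genes. Plain library totals lowered the median of all genes by 0.26 and ended the calls of Hk2 (log2 fold change 0.33), Pgd (0.10) and Tkt (0.11), so that G6pdx and Taldo1 were left of the pentose phosphate genes. DESeq2 also did not call Pgd and Tkt, and without any 1 of the 4 libraries Pgd was not called.

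Slc2a1 was at 109, 159, 103 and 160.0 in monocyte/macrophage-like cells against 35.0, 47.3, 34.5 and 21.4 in microglia-like cells (log2 fold change 2.01 ± 0.18, adjusted p = 2.53e-10), without overlap. Hk2 was at 299, 429.8, 342 and 438 against 281, 385, 229 and 271 (log2 fold change 0.62 ± 0.14, adjusted p = 0.000882), higher in each library but overlapping across them, and in the ROS- libraries alone its call ended (adjusted p = 0.0991). Gpi1 was at 522, 577, 527 and 547 against 217, 186, 216 and 192 (log2 fold change 1.69 ± 0.14, adjusted p = 6.45e-11). Hk1, the housekeeping hexokinase, was higher by 2.12 and Hk3 by 0.68.

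Pfkp was at 80.1, 161, 62.2 and 134 against 14.7, 20.9, 12.5 and 14.3 (log2 fold change 2.92 ± 0.20, adjusted p = 6.61e-13), with a log2 fold change of 2.28 when classes were set by marker UMIs per cell, and Pfkl was higher by 1.66. Pfkfb3 went the other way, at 29.9, 31.1, 36.2 and 35.4 against 63.5, 79.9, 50.2 and 64.1 (log2 fold change -0.79 ± 0.18, adjusted p = 0.000552), with no overlap, and without EAE ROS- replicate 2 its adjusted p was 0.0615. Aldoc, an aldolase best known from brain, was at 57.5, 41.2, 53.2 and 38.6 against 3.95, 3.10, 3.14 and 14.3 (log2 fold change 3.89 ± 0.27, adjusted p = 1.5e-12), and 2.26 with classes set per cell. Aldoa was at 2124, 2344, 2123 and 2023 against 779, 632, 847 and 470.3 (log2 fold change 1.94 ± 0.15, adjusted p = 1.39e-11).

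Tpi1 was at 857, 1106, 766 and 861 against 279, 225, 319.9 and 214 (log2 fold change 2.05 ± 0.17, adjusted p = 4.8e-11). Pgk1 was at 311, 247, 227 and 258 against 78.2, 43.4, 59.6 and 78.4 (log2 fold change 2.34 ± 0.17, adjusted p = 5.77e-12). Eno1 was at 1098, 1608, 1060 and 1465 against 422, 390.3, 411 and 356 (log2 fold change 1.96 ± 0.15, adjusted p = 1.79e-11). These genes of the middle and lower pathway did not overlap between the classes. Gapdh, at 2707, 3161, 2663 and 2669 against 1474, 1527, 1581 and 1361, had a smaller fold (log2 fold change 1.20 ± 0.12, adjusted p = 4.05e-09). Pgam1 was higher by 1.99 and Pkm by 1.49. Pgm2 was at 38.1, 56.6, 39.0 and 52.8 against 17.5, 14.0, 18.8 and 42.8 (log2 fold change 1.53 ± 0.23, adjusted p = 2.25e-06), and Pgm1 was higher by 0.97, a call that ended without EAE ROS- replicate 1 or 2 (adjusted p = 0.0577 and 0.0686).

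Lactate dehydrogenase RNA was nearly all Ldha in monocyte/macrophage-like cells. Ldha was at 1145, 1760.1, 1249 and 1574 against 513, 583, 552 and 591 (log2 fold change 1.62 ± 0.13, adjusted p = 3.66e-11). Ldhb was at 41.3, 18.8, 42.1 and 25.2 against 428, 335, 289 and 278 (log2 fold change -3.17 ± 0.17, adjusted p = 9.02e-15), the lowest p of the members. Neither gene overlapped between the classes, and the Ldha share was 96.5%, 98.9%, 96.7% and 98.4% against 54.6%, 63.5%, 65.7% and 68.0%. Slc16a3 was at 222, 348, 199 and 312 against 73.4, 71.4, 84.7 and 64.1 (log2 fold change 2.07 ± 0.19, adjusted p = 3.51e-10). Slc16a1, Pdk1 and Pfkfb4 were not called (log2 fold changes -0.07, 0.18 and -0.23).

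Of the pentose phosphate genes, G6pdx was at 32.0, 34.9, 36.3 and 40.0 against 24.3, 21.7, 22.0 and 28.5 (log2 fold change 0.78 ± 0.19, adjusted p = 0.00125). The classes did not overlap, but the microglia-like values of ROS+ rest on few UMIs. Taldo1 was at 317, 399, 302 and 409 against 258, 334, 188 and 278 (log2 fold change 0.71 ± 0.14, adjusted p = 0.000197), higher in each library but overlapping across them. Pgls was at 194, 149.9, 205 and 159.7 against 171, 154, 216 and 192 and was not called (adjusted p = 0.123). Pgd and Tkt were higher by 0.37 and 0.39, and Rpia and Rpe were not called (log2 fold changes 0.01 and 0.43).

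**Figure D3:**
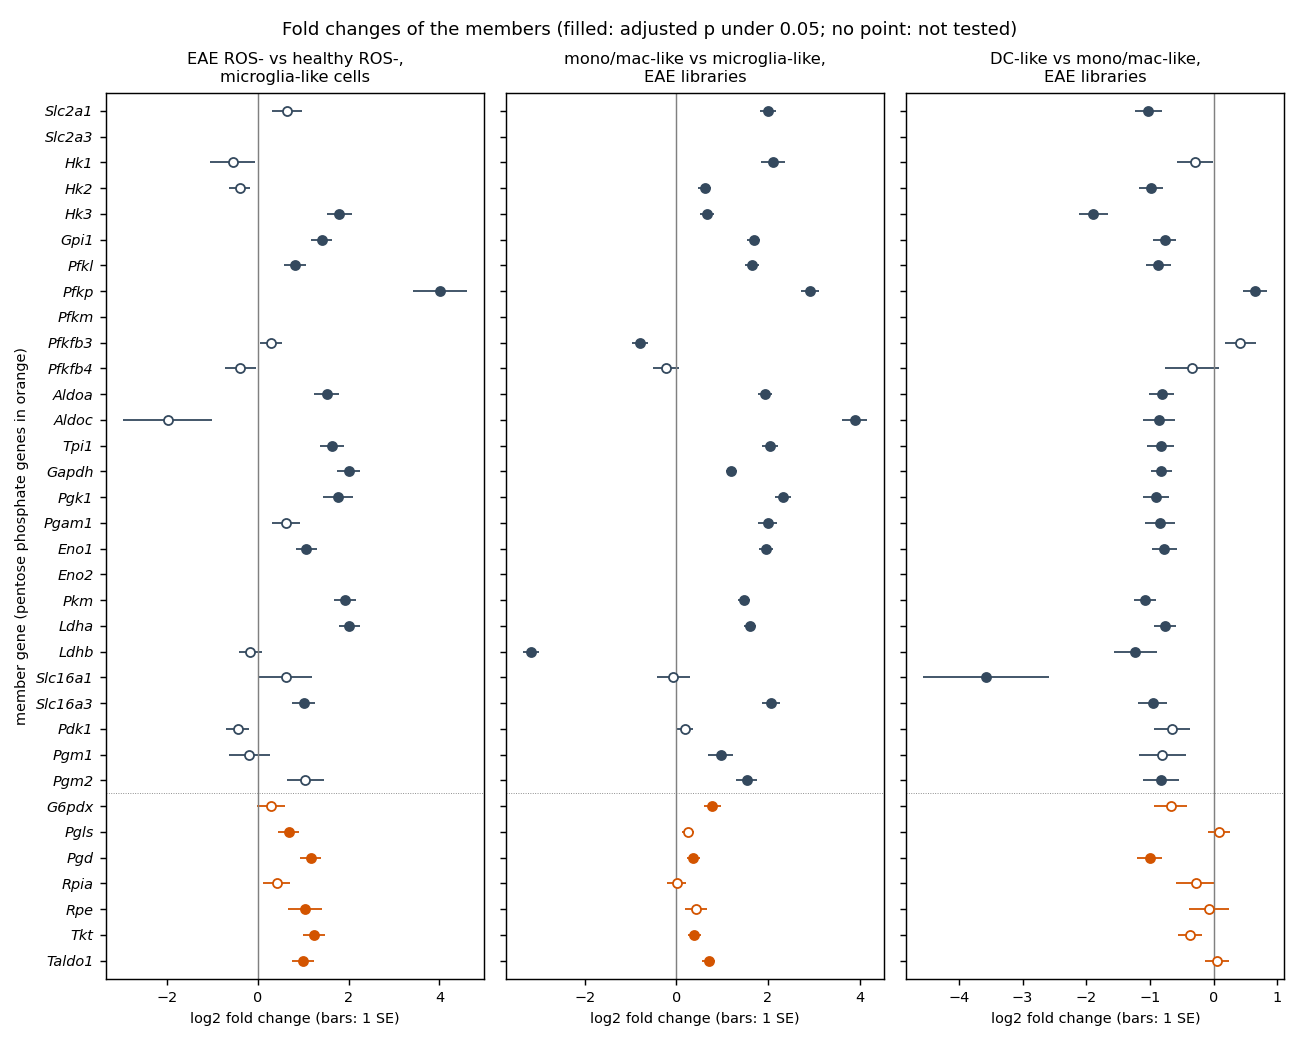
log2 fold changes (TMM-scaled, bars 1 SE) of the members in 3 comparisons, ordered by role from uptake to the pentose phosphate genes (orange, under the dotted line). Filled points have an adjusted p under 0.05, and members without a point were not tested. In microglia-like cells at EAE onset the medians of the branches are 0.91 and 0.99, and between monocyte/macrophage-like and microglia-like cells they are 1.64 and 0.39.

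Among the surrounding genes, beside the 22.3% and 21% of all genes given above, 16 of 22 of the hypoxia list were higher in monocyte/macrophage-like cells and 1 was lower (median 1.80), led by Vegfa (4.22), the mitophagy receptor Bnip3 (2.91) and Ier3 (2.41). Of the other sugar genes called, 9 were higher and 8 lower, of 29 tested (median 0.09), led by Slc2a5 (-6.14), the glycogen phosphorylase Pygl (2.81) and the glycerophosphate dehydrogenase Gpd2 (2.83). Of 13 other pentose phosphate and NADPH genes 4 were higher and 4 lower (median -0.19), led by the NAD kinase Nadk (0.98), the cytosolic NADPH-making Idh1 (1.20) and the ribose-phosphate kinase Prps2 (-1.16).

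Monocyte/macrophage-like cells differed among themselves. Of their clusters 7 had at least 20 cells in 3 or more EAE libraries and are described without a test. The median glycolysis sum was highest (1.47% of UMIs) in a cluster led by Inhba and Nos2, the gene of inducible nitric oxide synthase (1088 cells), and lowest (0.661%) in a cluster led by Ifitm6, Lrg1 and Cxcl10 (584 cells), the lowest in each of the 3 libraries in which it was summed. The Nos2-led cluster was highest in replicate 2 of each gate. In replicate 1 a cluster led by Mmp12, Ccl6 and Arg1 among others was higher, at 1.33 and 1.39% against 1.29 and 1.34% (ROS-, then ROS+), with a median of 1.45%. The median pentose phosphate sum was highest in the Ifitm6-led cluster, 0.125% over its 3 libraries, and highest in each of them. It was lowest in the Nos2-led cluster, 0.0849%, but in both ROS- libraries a cluster led by Saa3 and Ccl5 was lower, at 0.0821 and 0.0915% against 0.0833 and 0.0946%.

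In the Nos2-led cluster Slc2a1 was at 180.4, 216, 208 and 244, against medians of 71.1 to 134 in the other 6 clusters. Pfkp was at 164, 243, 170.5 and 222, against 33.8 to 120.2. Slc16a3 was at 356, 466, 375 and 502, against 146 to 281. Slc2a1, Hk2, Pfkp and Slc16a3 were highest in this cluster in each of the 4 libraries, and 10 of the 27 glycolysis genes had their highest median there. The cluster was singled out by the sum of the same genes, and the share of all genes with their highest median in it was not counted. A cluster led by Ms4a7, Fabp5 and Apoe had the lowest Hk2 and Pfkp in each of the 4 libraries (medians 220.3 and 33.8) and the highest Ldhb (median 58.7, against 16.2 in the Nos2-led cluster).

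In the Ifitm6-led cluster 15 of 27 glycolysis genes had their lowest median (Slc2a3 at 0, tied with another cluster) and 4 of 7 pentose phosphate genes their highest. Pfkm and Eno2 also had a median of 0 there, tied with other clusters, and are not among the 15. The Ifitm6-led cluster too was singled out by the sums of the same genes, and the share of all genes with an extreme median in it was not counted. Ldha there was at 685, 738 and 534 (ROS+ replicates 1 and 2, ROS- replicate 2), against medians of 1028 to 1832 in the other clusters. Taldo1 was at 546, 539 and 626, against 301 to 412, and G6pdx at 62.7, 50.04 and 56.6, against 30.4 to 39.5. Of its cells 459 came from ROS+ replicate 2, and its median of 4874 UMIs per cell was the lowest of the 7 clusters. A cluster of near depth (5072 UMIs), led by Ccr2 and Plac8, had a median Ldha of 1262. The part of depth, or of ROS+ replicate 2, in the levels of the Ifitm6-led cluster was not tested. The Mmp12-led cluster had the highest median Ldha, 1832, being highest in 2 of 4 libraries, with 1795 in the Nos2-led cluster.

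**Figure D4:**
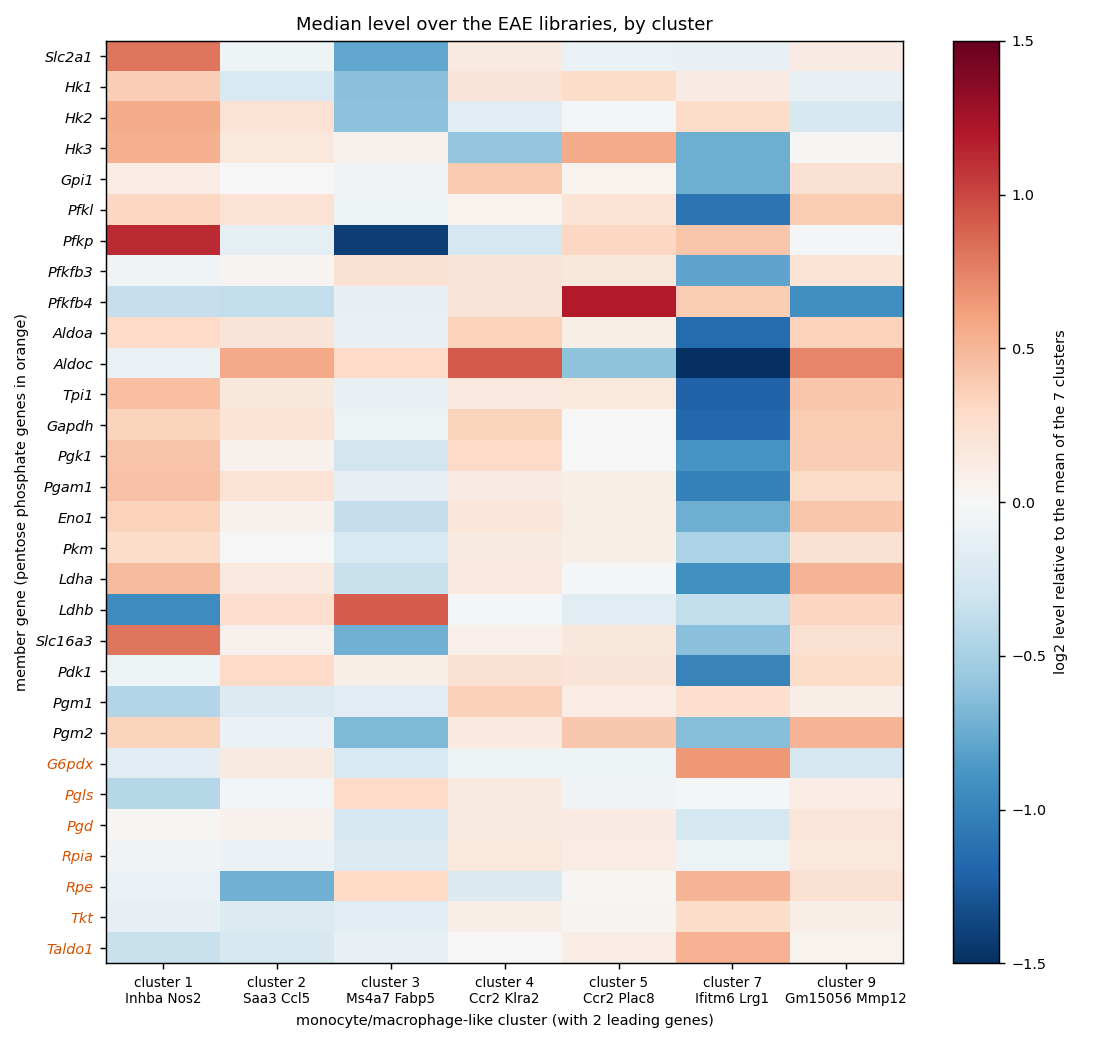
Median level over the EAE libraries of 30 members in 7 monocyte/macrophage-like clusters, as log2 relative to the mean of the clusters (colour limits -1.5 and 1.5), with Slc2a3, Pfkm, Eno2 and Slc16a1, of low level, not shown. The Nos2-led cluster is high for Slc2a1, Pfkp and Slc16a3, and the Ifitm6-led cluster is low for most glycolysis enzymes and high for Taldo1 and G6pdx.

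Dendritic cell-like cells of the ROS- libraries carried less glycolysis RNA than monocyte/macrophage-like cells, 0.628% and 0.941% of UMIs against 1.15% and 1.45%, and 0.0951% and 0.0884% against 0.0901% and 0.101% of pentose phosphate RNA. By edgeR 19 of 31 members were lower and 1 higher in dendritic cell-like cells, where 15.7% of genes were called, 8.86% as lower and 6.89% as higher. Lower were 18 of 24 glycolysis genes and, of the 7 pentose phosphate genes, Pgd. The medians were -0.83 and -0.29, beside -0.08 over all genes. The count rested on 1 library and on the tool, and DESeq2 called 10. Without EAE ROS- replicate 1, replicate 2 was the only dendritic cell-like library. The log2 fold change of Gapdh was then -0.53 and that of Ldhb -1.80. Classes set by marker UMIs per cell held 16 and 34 dendritic cell-like cells. The 16 were too few to sum, so that fit also rested on replicate 2 alone. Its median over all genes was -0.62. Its call count is listed only among the other settings at the end, and no conclusion is drawn from it.

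Hk3 was at 23.5 and 40.2 in dendritic cell-like cells against 91.2 and 121 (log2 fold change -1.89 ± 0.23, adjusted p = 3.78e-07). Pkm was at 702 and 1021 against 1468 and 1951 (log2 fold change -1.07 ± 0.17, adjusted p = 3.06e-05). Pgd was at 54.5 and 90.5 against 114 and 156 (log2 fold change -1.002 ± 0.20, adjusted p = 0.000371). None of these overlapped between the classes. Hk2 was at 164 and 264 against 299 and 429.8 (log2 fold change -0.99 ± 0.19, adjusted p = 0.000407). Gapdh was at 1412 and 2126 against 2707 and 3161 (log2 fold change -0.82 ± 0.16, adjusted p = 0.000453). Slc2a1 was at 49.5 and 97.7 against 109 and 159 (log2 fold change -1.03 ± 0.22, adjusted p = 0.000947). These also lay apart. Pfkl was at 70.5 and 109 against 136 and 169 (log2 fold change -0.87 ± 0.19, adjusted p = 0.00178), and Ldha at 725 and 1086 against 1145 and 1760.1 (log2 fold change -0.76 ± 0.17, adjusted p = 0.00171), while Ldha still gave 97.1% and 99.3% of the UMIs of Ldha and Ldhb.

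Pfkp was the member that was higher, at 141 and 256 against 80.1 and 161 (log2 fold change 0.65 ± 0.19, adjusted p = 0.0143), overlapping across libraries, and its call ended without either ROS- library (adjusted p = 0.151 and 0.224). The other log2 fold changes called were those of Gpi1 (-0.77), Aldoa (-0.82), Aldoc (-0.86), Tpi1 (-0.83), Pgk1 (-0.90), Pgam1 (-0.84), Eno1 (-0.78), Ldhb (-1.23), Slc16a1 (-3.57), Slc16a3 (-0.96) and Pgm2 (-0.83). The fold of Slc16a1 rests on few UMIs. Its level was 0.897 and 0 CPM in the dendritic cell-like cluster led by Ccl17, against 5.14 and 8.33 in monocyte/macrophage-like cells. Taldo1, at 451 and 371 against 317 and 399, and Pgls, at 203 and 172 against 194 and 149.9, were not called, nor were Hk1 (-0.30), Pfkfb3 (0.42), Pfkfb4 (-0.34), Pdk1 (-0.65), Pgm1 (-0.81), G6pdx (-0.67), Rpia (-0.29), Rpe (-0.07) and Tkt (-0.38). Of the other lists 9 of 22 hypoxia genes were lower and 0 higher, 4 of 29 sugar genes were lower and 0 higher, and 2 of 13 NADPH genes were higher and 2 lower. The 10 dendritic cell markers summed to 1216.9 and 4285.5 CPM in the dendritic cell-like cells and 40.2 and 63.1 in the monocyte/macrophage-like cells of ROS-. Monocyte/macrophage markers summed to 5422 and 6339.9 in the dendritic cell-like cells and 5890.2 and 10231 in the monocyte/macrophage-like cells. The part of monocyte/macrophage RNA, and of the difference between the libraries in dendritic cell markers, was not tested.

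Between the dye gates no member was called within a class. In monocyte/macrophage-like cells, ROS+ against ROS-, edgeR called 0 of 32 members (0 at an unadjusted p under 0.05) and 0% of 11738 genes (382 before adjustment at the same limit). DESeq2 gave 0 calls among the members. Ldha was at 1249 and 1574 in ROS+ and 1145 and 1760.1 in ROS-, and Slc2a1 at 103 and 160.0 in ROS+ and 109 and 159 in ROS-, overlapping in both. G6pdx was at 36.3 and 40.0 in ROS+ and 32.0 and 34.9 in ROS-, without overlap (log2 fold change 0.21 ± 0.18, adjusted p = 1.00). The median log2 fold changes were -0.09 for glycolysis and 0.01 for the pentose phosphate genes. In microglia-like cells edgeR called 0 of 31 members (1 at an unadjusted p under 0.05, Rpe) and 0% of 8867 genes (587 before adjustment), and DESeq2 gave 0 calls. Rpe was there at 0 and 14.3 CPM in ROS+ and 23.7 and 35.7 in ROS-. The difference between the classes in the gate effect was called for 0 of 33 members by edgeR and 0 by DESeq2 (3 at an unadjusted p under 0.05: Rpe, Ldhb and Hk2). Of 11674 genes 0.206% were called, 0.0257% with a higher and 0.18% with a lower difference, and 769 stood under that limit before adjustment. These tests do not show that the gates were alike.

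Over all cells of a library, fewer cells of a type and less RNA per cell cannot be told apart. In EAE ROS- against healthy, 22 of 33 members were higher and 1 lower, where 34% of 13631 genes were called, 19.9% as higher and 14% as lower. Higher were Slc2a1 (1.74), Hk1 (1.30), Hk3 (2.26), Gpi1 (2.77), Pfkl (2.17), Pfkp (6.86), Aldoa (3.08), Tpi1 (3.44), Gapdh (3.01), Pgk1 (3.71), Pgam1 (2.35), Eno1 (2.72), Pkm (3.11), Ldha (3.42), Slc16a3 (2.84), Pgm2 (2.54), G6pdx (1.11), Pgls (1.01), Pgd (1.55), Rpe (1.15), Tkt (1.44) and Taldo1 (1.41), and Ldhb was lower (-1.43). Plain library totals, which lowered the median of all genes by 0.49, gave 17 higher and 3 lower, without Slc2a1, Hk1, G6pdx, Pgls and Rpe and with Pfkfb4 (-1.12) and Pdk1 (-0.85).

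Some of these calls rested on 1 library. Slc2a1 was not called without healthy replicate 1 (log2 fold change 0.98, adjusted p = 0.215) or EAE ROS- replicate 2 (1.21, adjusted p = 0.0746), and stood at 2.70 without healthy replicate 2. Hk1 (adjusted p = 0.102 to 0.167), Rpe (0.0670 to 0.0908) and Ldhb (0.0672 to 0.148) were not called without either healthy library or without EAE ROS- replicate 2, and Ldhb was at -2.09 without EAE ROS- replicate 1. Without healthy replicate 1 the calls of Pgam1, Pgls and Taldo1 also ended (adjusted p = 0.0665, 0.0782 and 0.0647). Without EAE ROS- replicate 2 the log2 fold change of Pgam1 was 1.68 and that of Pfkp 6.08, and without healthy replicate 1 that of Pfkp was 5.91. Aldoc was called without healthy replicate 2 (4.50, adjusted p = 0.00163) and without the filter on low counts (adjusted p = 2.66e-05).

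Of the genes with the lowest p here, Pgk1 was at 25.3 and 14.2 in health and 197 and 199.99 in EAE ROS-, Aldoa at 295 and 272 against 1467 and 1951, Tpi1 at 94.3 and 94.0 against 554 and 894, and Gpi1 at 96.1 and 79.8 against 371 and 489. Gapdh was at 372 and 479 against 2077 and 2815, Ldha at 169 and 141 against 861 and 1505, Pkm at 191 and 245 against 1047 and 1629, and Pfkp at 0.903 and 2.19 against 56.7 and 133. None of them overlapped between the groups. Beside the 19.9% and 14% of all genes, of the hypoxia list 13 of 23 genes were higher and 1 lower, of the other sugar genes 11 and 4 of 33, and of the other NADPH genes 5 and 3 of 15. This comparison and the gate comparison share the EAE ROS- libraries.

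In ROS+ against ROS- over all cells edgeR and DESeq2 called 0 of 33 members, where 2.16% of genes were called, 0.125% as higher and 2.04% as lower. At an unadjusted p under 0.05 stood 1708 of 13631 genes. Of the members only Ldhb did, at 53.3 and 30.5 in ROS+ and 182 and 77.6 in ROS-, without overlap (log2 fold change -1.44 ± 0.41, adjusted p = 0.132). It was called without EAE ROS- replicate 2 (log2 fold change -1.90, adjusted p = 0.00231) and without the filter on low counts (adjusted p = 3.47e-06). The 11 microglial markers summed to 1096 and 611 in ROS+ and 5897 and 2806 in ROS-. Within neither class was Ldhb called between the gates, but those tests called 0% of all genes. The microglia-like sums of ROS+ rested on 30 and 22 cells. The part of cell make-up in the Ldhb difference was not tested. Of the other lists Slc2a5 was called, lower in ROS+ (-2.93).

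Slc2a3, another glucose transporter, and Pfkm and Eno2, the muscle and neuronal forms of their enzymes, had few UMIs in the 3 classes compared. Slc2a3 had 0 to 30 UMIs, Pfkm 0 to 49 and Eno2 0 to 6 in a class and library, and Eno2 reached at most 3.17 CPM in any class or cluster. Eno2 did not pass the filter on low counts in any comparison. Slc2a3 and Pfkm did not pass it within microglia-like cells or in the tests of class against class, and were not called in the comparisons above where they passed. With classes set by marker UMIs per cell Slc2a3 was tested and was lower in monocyte/macrophage-like than in microglia-like cells (-1.87, adjusted p = 0.0142 by edgeR).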

How the data were processed

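RNA of CD11b-sorted spinal cord cells was measured in 6 droplet libraries, 2 in each of 3 groups. The authors' files give whole UMI counts for each gene in each cell, as deposited and per the file headers. Cell Ranger 2.0.1, Seurat 3, R 3.4.2 and the build mm10 are named in the submitters' processing notes; aligner settings are not stated there. The study states 8701 cells, and the files hold 9079 barcodes, of which 9078 passed the filter (200 or more genes, mitochondrial share no higher than 10%).

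Counts were scaled to 10000 per cell and clustered with scanpy 1.11.5 (2000 variable genes without the 8 pathway genes among them, 30 components, 15 neighbours, Leiden resolution 1, seed 7), giving 19 clusters. Clusters were named from marker lists. A class level is the mean, over its markers, of the level relative to the highest cluster. A cluster took the class of highest level if this was at least 0.25 and 3 markers reached 0.5 UMIs per 10000, and was called mixed, and left out of the classes, if microglia and either monocyte/macrophage or endothelial levels reached 0.1. These limits were set after the clusters were seen. No doublet caller was run. Barcodes shared between libraries were kept.

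UMI counts were summed per library and class (at least 20 cells) and tested with edgeR 4.0.16 in R 4.3.3 (quasi-likelihood, TMM scaling, low-count filter filterByExpr at 10, Benjamini-Hochberg over all genes tested, adjusted p under 0.05). All groups of a class shared one fit. The steps were tested on simulated data. Alternatives were DESeq2 1.42.0 and its size factors, plain totals, no low count filter, other class rules, a replicate block and leaving out each library. Replicates of a group differed by more than sampling noise (chi-square per degree of freedom 6.4 to 74.6 over all cells), so each counts as 1 sample. Precision beyond counting error rests on 2 libraries per group.

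In each comparison all members were accounted for, members with an adjusted p under 0.05 were named, and values per library were given for up to 8 of them with the lowest p and for the member of highest level in each of 9 roles. Up to 3 called genes of each other list were named by lowest p. Members and lists were chosen with earlier results of these data known. Of the gene IDs 36345 occurred in the name table, and 293 symbols had several IDs.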

Additional observations from a re-analysis of the deposited data

How the results depend on the processing

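Leaving out each library in turn gave 16 to 23 called members in EAE ROS- against healthy over all cells, 13 to 18 in microglia-like cells, 22 to 24 between monocyte/macrophage-like and microglia-like cells, 2 to 19 between dendritic cell-like and monocyte/macrophage-like cells, 0 to 1 between the gates over all cells, and 0 throughout in the other gate tests. The dendritic cell comparison had 10 calls with DESeq2 and 8 with classes set by marker UMIs per cell. DESeq2 called 10.9% of all genes there. The per-cell fit had EAE ROS- replicate 2 as its only dendritic cell-like library, so no conclusion is drawn from its count. Leaving out either EAE ROS- library also left 1 dendritic cell-like library, and the low end of 2 came from the fit without replicate 1. The gate comparison over all cells had 1 call without the low count filter, where 4.88% of 20633 genes were called. In the EAE libraries alone with a replicate block it had 5 (Slc2a1, Hk1 and Aldoc higher, Slc2a3 and Ldhb lower), where 14.3% of 12851 genes were called. That fit had 1 residual degree of freedom, and Ldhb stood at an adjusted p of 2.95e-06 by edgeR. The replicate block gave 23 and 16 calls in EAE ROS- against healthy (all cells and microglia-like cells) and 0 in the gate tests over all cells, in microglia-like and in monocyte/macrophage-like cells. The labels do not say that replicate numbers pair the samples. Replicate differences of ROS+ and ROS- correlated at 0.509 over all cells, 0.482 in monocyte/macrophage-like and 0.0964 in microglia-like cells. The glycolysis ratio of EAE ROS- over healthy microglia-like cells was 1.92, 1.84 to 2.01 with a library left out, 1.65 without Gapdh, the member of highest level, and 2.32 with classes set per cell. The ratio of monocyte/macrophage-like over microglia-like cells was 2.33, 2.06 to 2.61 and, per cell, 1.88. The pentose phosphate ratios were 1.54 to 1.84 and 1.08 to 1.15 with a library left out. The difference in Ldha share was 34.6 points, 29.1 to 40.0 with a library left out and 45.8 with classes set per cell. In the Nos2-led cluster, relative to the median of the others, Slc2a1 was 1.82 (1.62 to 1.91), Pfkp 2.23 (1.98 to 2.58, and 1.80 at Leiden resolution 0.5), Slc16a3 1.66 (1.498 to 1.73) and Ldha 1.26 (1.18 to 1.35, and 1.40 at resolution 0.5). Over 85 gene results, all of them calls of the main fits, 849 of 964 recalculated values kept direction and side of the threshold, 115 kept direction only, and none reversed. Members not called in the main fits do not enter these counts. Fits that left out a library of a group outside the comparison do enter them. The cause of the 115 losses was not tested. Plain totals, removal of cells with endothelial markers, and leave-outs of the sums and per-cell classes for them were chosen after seeing the data. The gate test in microglia-like cells without the dividing cluster was not run, since under 20 cells were left in ROS+.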

Other observations

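T or NK cell-like cells of the EAE ROS- libraries (37 and 35 cells) had a glycolysis sum of 0.722% and 1.09% of UMIs and an Ldha share of 88.8% and 95.1% of Ldha and Ldhb. In the cluster left out as mixed, the Ldha share ran from 81.1% to 93.4% over the EAE libraries. Slc2a3, of low level elsewhere, stood at 26.98 and 55.8 CPM in these T or NK cell-like cells.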
